A study of Mus musculus with 4 samples.

Results

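Messenger RNAs of 7 enzymes of cholesterol synthesis (Hmgcs1, Idi1, Fdps, Fdft1, Sqle, Lss and Cyp51) were followed through 4 single-cell libraries of mouse blood stem and progenitor cells. The genes were a list fixed by name, 7 of the 32285 genes counted, and were chosen with earlier results of these data known. Each library held CD45.2+ donor cells of the bone marrow sorted as Lin-Sca1+Kit+ (LSK, a population rich in blood stem cells and early progenitors), taken from recipient mice 10 weeks after transplantation. The labels named the donor cells as control (WT in the library name), Mll3 deleted, Mll4 deleted, or deleted for both (Mll3/4). The sort, the transplantation and the time were common to the 4 libraries. The Cre driver, the ages of the mice and the number of animals pooled were not given in the sources used here. Mll3 and Mll4 are histone methyltransferases encoded by Kmt2c and Kmt2d. Each genotype had a single library. Differences between genotypes are therefore described without any test, and the 95% intervals below cover counting error only.

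Cholesterol is made from acetyl-CoA through the mevalonate pathway. Hmgcs1 makes HMG-CoA, the precursor of mevalonate. Idi1 and Fdps, an isomerase and farnesyl diphosphate synthase, build the isoprenoid chain, which also feeds protein prenylation. Fdft1 (squalene synthase), Sqle (squalene epoxidase), Lss (lanosterol synthase) and Cyp51 (lanosterol demethylase) lead from there to the sterol ring. The transcription factor SREBP2, the product of Srebf2, is held in the endoplasmic reticulum by Insig proteins while sterols are plentiful. When they run low, Scap escorts it to the Golgi, where it is cut, and its active part raises these enzymes. It binds sterol regulatory elements, usually beside sites of NF-Y and of Sp1. Dividing cells need sterols for new membrane.

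Promoters of 4 of the 7 genes were found in the RefSeq table (GRCm38.p6, 250 bases before to 50 after the start of the gene) and are shown because these genes share a regulator yet differed in how they followed the libraries and the cell cycle. The genes without an entry were Sqle, Fdps and Fdft1. Capitals mark 3 motifs searched on both strands: the sterol regulatory element TCACNCCAC, CCAAT (bound by NF-Y) and GGGCGG (bound by Sp1). They are written 5′ to 3′ on the strand of the gene: Hmgcs1 at chr13:119690101-119690400 (plus), Idi1 at chr13:8885356-8885655 (plus), Lss at chr10:76531355-76531654 (plus) and Cyp51 at chr5:4104648-4104947 (minus).
Hmgcs1: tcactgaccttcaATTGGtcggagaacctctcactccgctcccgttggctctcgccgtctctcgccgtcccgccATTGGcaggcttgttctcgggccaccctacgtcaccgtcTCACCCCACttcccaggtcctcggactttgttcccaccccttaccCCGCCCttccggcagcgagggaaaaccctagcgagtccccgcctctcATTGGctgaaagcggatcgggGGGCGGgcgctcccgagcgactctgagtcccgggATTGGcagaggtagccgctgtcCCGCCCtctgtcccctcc
Idi1: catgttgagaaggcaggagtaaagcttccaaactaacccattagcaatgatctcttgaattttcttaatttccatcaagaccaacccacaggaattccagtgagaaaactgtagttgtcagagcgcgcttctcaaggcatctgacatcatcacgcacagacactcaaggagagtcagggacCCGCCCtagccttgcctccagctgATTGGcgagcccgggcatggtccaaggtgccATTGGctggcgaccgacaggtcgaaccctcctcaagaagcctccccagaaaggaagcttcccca
Lss: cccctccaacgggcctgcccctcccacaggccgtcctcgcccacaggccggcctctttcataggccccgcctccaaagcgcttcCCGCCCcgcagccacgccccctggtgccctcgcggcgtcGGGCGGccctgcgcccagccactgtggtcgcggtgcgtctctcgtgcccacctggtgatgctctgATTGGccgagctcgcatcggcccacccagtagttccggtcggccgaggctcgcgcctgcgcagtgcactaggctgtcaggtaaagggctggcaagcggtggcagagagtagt
Cyp51: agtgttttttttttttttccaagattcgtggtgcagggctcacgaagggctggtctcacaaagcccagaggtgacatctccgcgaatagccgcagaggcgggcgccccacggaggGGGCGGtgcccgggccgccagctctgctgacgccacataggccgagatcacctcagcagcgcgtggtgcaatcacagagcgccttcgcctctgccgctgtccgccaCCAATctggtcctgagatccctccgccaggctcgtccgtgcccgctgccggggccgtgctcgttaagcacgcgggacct
The sterol element was matched in Hmgcs1 alone among these 4, as TCACCCCAC with its first base at position -137 from the start. It was matched in 1.24% of 32851 promoters of this length and in 0 of the 12 other cholesterol enzymes with an entry. CCAAT was matched in 4 of 4, against 37.4% of promoters. GGGCGG was also matched in 4 of 4, against 35.7%. The Hmgcs1 window held CCAAT on the opposite strand at 4 places, Idi1 at 2, Lss at 1, and Cyp51 had 1 on the strand of the gene. A match is a description of letters in this window and not a site of binding. Only these exact letters were searched, so a window without a match is not shown to lack an element.

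Cells were kept where 1000 or more genes were counted and mitochondrial transcripts made up 10% or less of the UMIs (unique molecular identifiers, each standing for 1 counted transcript), which left 4748 to 7274 cells per library. The kept share was 92.4% to 94.7% of the deposited barcodes in 3 libraries and 62.2% in the Mll4-labelled one. Median depth was 8920 to 21400 UMIs per cell, lowest in the Mll3/4-labelled and highest in the Mll4-labelled library. Pairs of libraries shared 9 to 22 deposited barcodes, at most 0.35% of the smaller one. Levels are given as CPM, UMIs per 1000000 UMIs of the cells summed. Kmt2c was at 68.9 CPM in the control and at 35.3, 61.3 and 42.3 in the Mll3-, Mll4- and Mll3/4-labelled libraries. Kmt2d was at 24.6, 21.6, 22.6 and 25.4 in the same order, so it did not set the Mll4 labels apart, and libraries are named here by their labels. A 3-prime tag outside the deleted part does not check a deletion. Kit and Ly6a, which encode the sort markers Kit and Sca1, were present in all 4 libraries, while Cd34 was at 332 CPM in the control and 5.18 in Mll3/4-labelled cells.

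The libraries also differed in which cells they held, and this touches every comparison below. Of the Mll4-labelled cells, 45.7% (2190 cells) lay in clusters with the markers of mast cells or basophils, macrophages or monocytes, neutrophils, plasma or mature B cells, T or innate lymphoid cells, or stroma, and a further 991 cells were granulocyte-monocyte-like. The share in such mature clusters was 0.126% to 2.90% in the other 3 libraries. Summed markers of mast cells or basophils reached 1619 CPM there against 1.85 to 22.3 elsewhere, and those of macrophages or monocytes 639 against 5.99 to 14.6. Of the Mll3/4-labelled cells, 99.4% were B-lineage-like, and the 9 B-lineage markers summed to 12979 CPM against 60.4 in the control. None of the 9 was at 0 in any library, and all 9 reached 20 CPM in the Mll3/4-labelled one alone. Of the 6 mast cell or basophil markers, Tpsb2 was at 0 in the 3 other libraries, and of the 8 macrophage or monocyte markers Lyz1 was at 0 in Mll3/4-labelled cells. Beyond the values given without mature clusters, the part of these cells in the results was not tested. Each comparison with the control uses the same control library, so the 3 sets of ratios are not independent.

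The first comparison set the level of each gene in the libraries side by side. The 7 genes summed to 168 CPM in control cells (interval 165 to 170), 206 in Mll3-labelled cells (204 to 209), 110 in Mll4-labelled cells (108 to 112) and 125 in Mll3/4-labelled cells (122 to 128). The Mll3-labelled library was thus the highest and the Mll4-labelled the lowest, with no overlap of these intervals. The genes did not follow 1 pattern: Idi1 was low in both libraries with an Mll4 label, Sqle, Fdft1 and Cyp51 were lowest in the Mll4-labelled one, and the Fdps and Lss sums of the Mll4-labelled library lay close to those of the control.

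Hmgcs1 (chr13:119690379-119708260, plus strand, GRCm38, as for all genes below), the first of the enzymes, was counted at 22.1 CPM in control cells (21.2 to 22.9), 23.9 in Mll3-labelled cells (23.0 to 24.9), 16.7 in Mll4-labelled cells (16 to 17.5) and 18.1 in Mll3/4-labelled cells (16.9 to 19.3). The last 2 lay below the first 2, and their intervals overlapped each other. The log2 ratios to control were 0.11, -0.40 and -0.29.

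Idi1 (chr13:8885501-8892451, plus strand) gave the clearest split. Its level was 40.2 CPM in control cells (39.1 to 41.4), 49.1 in Mll3-labelled cells (47.8 to 50.5), 16.4 in Mll4-labelled cells (15.7 to 17.1) and 17.6 in Mll3/4-labelled cells (16.4 to 18.8). Both libraries with an Mll4 label were far below the other 2. The log2 ratios to control were 0.29 (0.23 to 0.35), -1.29 (-1.37 to -1.22) and -1.19 (-1.30 to -1.09). The related gene Idi2 had 0 to 3 UMIs per library.

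Fdps (chr3:89093588-89101959, minus strand) was at 49.3 CPM in control cells (48.0 to 50.5), 68.4 in Mll3-labelled cells (66.9 to 70.0), 47.6 in Mll4-labelled cells (46.4 to 48.8) and 42.0 in Mll3/4-labelled cells (40.2 to 43.8). It was highest in the Mll3-labelled library, where its log2 ratio of 0.47 (0.42 to 0.52) was the largest of the 7, and the control and Mll4-labelled intervals overlapped. The other ratios were -0.05 and -0.23.

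Fdft1 (chr14:63145150-63179578, minus strand), the first enzyme given to sterols alone, was at 9.48 CPM in control cells (8.93 to 10.0), 9.46 in Mll3-labelled cells (8.88 to 10.1), 5.24 in Mll4-labelled cells (4.84 to 5.66) and 12.5 in Mll3/4-labelled cells (11.5 to 13.5). It was the one gene of the 7 that was higher in the Mll3/4-labelled library than in the control, at a log2 ratio of 0.40 (0.26 to 0.54). The Mll4-labelled ratio was -0.86 (-1.0 to -0.71). The gene overlaps Ctsb on the opposite strand, and whether the counting used strand is not stated. Ctsb was at 58.0, 66.1, 334 and 59.9 CPM in the order control, Mll3-, Mll4- and Mll3/4-labelled, which is highest where Fdft1 was lowest.

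Sqle (chr15:59315077-59331192, plus strand), a rate-limiting enzyme of the sterol branch, was at 17.6 CPM in control cells (16.8 to 18.4), 21.8 in Mll3-labelled cells (20.9 to 22.7), 7.32 in Mll4-labelled cells (6.85 to 7.82) and 15.4 in Mll3/4-labelled cells (14.4 to 16.6). It was lowest in the Mll4-labelled library, at a log2 ratio of -1.26 (-1.38 to -1.15). The other ratios were 0.31 and -0.19.

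Lss (chr10:76531588-76557138, plus strand) had 126 to 528 UMIs per library. It was at 4.42 CPM in control cells (4.06 to 4.82), 3.89 in Mll3-labelled cells (3.52 to 4.28), 4.25 in Mll4-labelled cells (3.89 to 4.63) and 2.48 in Mll3/4-labelled cells (2.07 to 2.95). The first 3 overlapped and the Mll3/4-labelled level lay below them, at a log2 ratio of -0.83 (-1.13 to -0.55).

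Cyp51 (chr5:4081145-4104746, minus strand) was at 24.6 CPM in control cells (23.7 to 25.5), 29.9 in Mll3-labelled cells (28.9 to 31.0), 12.6 in Mll4-labelled cells (12 to 13.3) and 17.2 in Mll3/4-labelled cells (16 to 18.3). The 4 intervals were separate. The log2 ratios were 0.28, -0.96 and -0.52. Cyp51 overlaps Akap9 on the opposite strand, which was at 124 to 172 CPM. Hmgcs1, Idi1 and Lss overlap predicted or antisense genes on the opposite strand, and reads of such pairs cannot be told apart without strand. Fdps overlaps the predicted coding gene Gm43738 and a small nuclear RNA gene on its own strand, so its counts are uncertain to that extent.

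**Figure D1:**
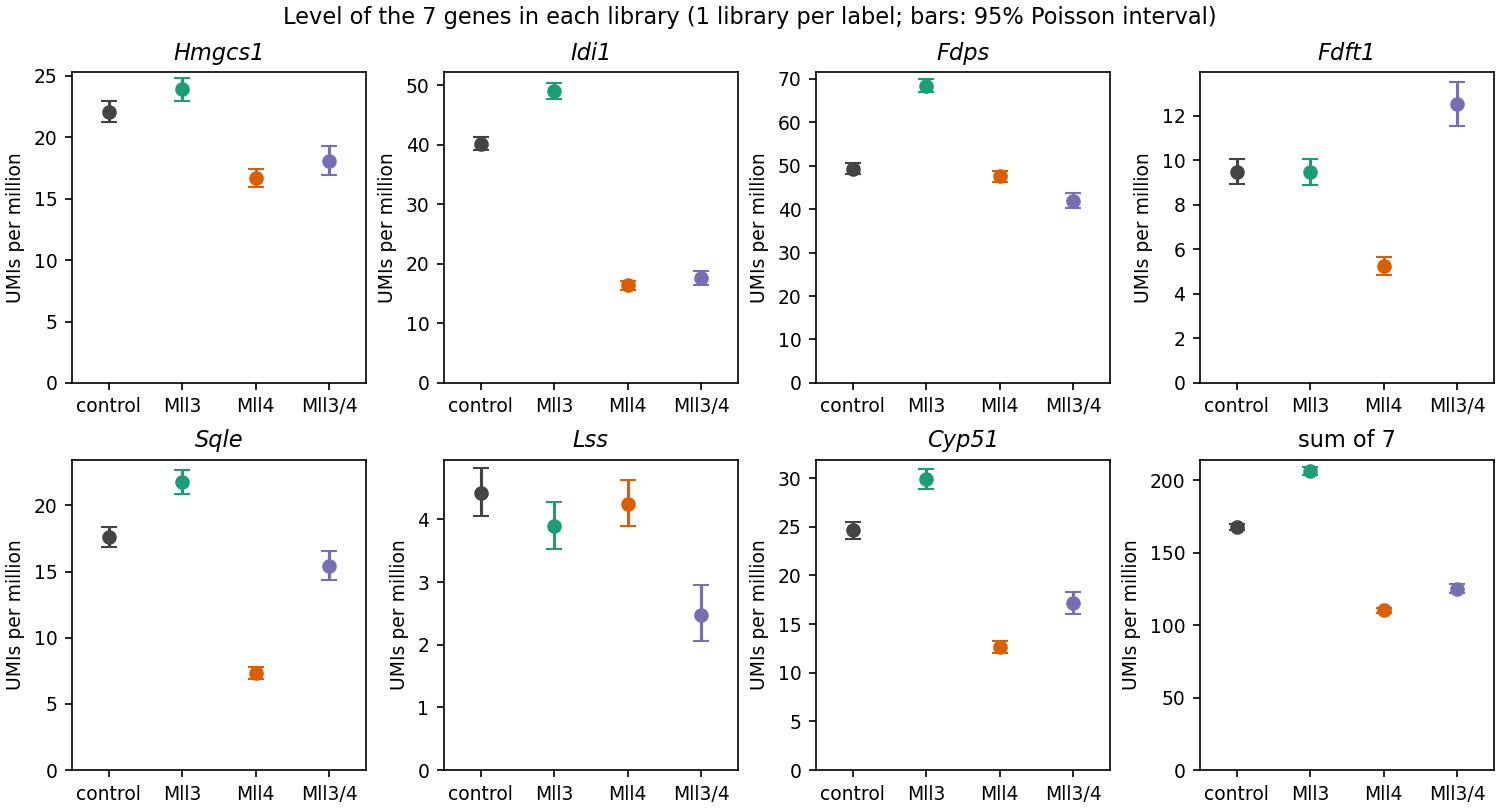
CPM (vertical axis, from 0, a scale of its own in each panel) of each gene and of their sum in the 4 libraries; points are 1 library each and bars are 95% Poisson intervals. Idi1 is low in both libraries with an Mll4 label, and Fdft1 is highest in the Mll3/4-labelled library at 12.5.

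Counts past 1.5-fold were read against all genes whose mean over the libraries was 20 CPM or more. They are a description only, since the 7 genes were chosen with earlier results of these data known. Among Mll3-labelled cells 0 of the 7 genes passed in either direction, against 6.11% of 6125 genes, and 5 of the 7 ratios were above 0, with a median of 0.28 beside 0.10 for all genes. In the Mll4-labelled library 4 of the 7 genes (Idi1, Sqle, Cyp51 and Fdft1) were at least 1.5-fold lower, against 14.3% of genes, and none was higher, against 10.9%. All 7 ratios there were below 0, with a median of -0.86 beside -0.11 for all genes tested at 5 CPM or more. In the Mll3/4-labelled library 2 of the 7 (Idi1 and Lss) were at least 1.5-fold lower, against 20.8% of genes, with a median of -0.29 beside -0.12. None of the 7 was at least 1.5-fold higher there, against 11.3%. Only 4 of the 7 genes (Hmgcs1, Idi1, Fdps and Cyp51) themselves passed the minimum of 20, and 6 (all except Lss) passed 5. At that lower minimum the share of genes that were lower was 15.3% in Mll4-labelled cells and 24.1% in Mll3/4-labelled cells.

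With the mature clusters left out of every library, the Mll4-labelled count of lower genes was again 4 of 7, against 12.5% of genes, with Idi1 at -1.20, Sqle at -1.14, Cyp51 at -0.99 and Fdft1 at -0.76. Fdps, at -0.05 with all cells, was at 0.16 (0.10 to 0.21) without them, and Lss moved from -0.06 to -0.54 (-0.75 to -0.33). With all cells kept but each given equal weight, both moved the opposite way, Fdps to -0.48 and Lss to 0.57, so neither had a settled direction in this library. Idi1 and Sqle were at -1.53 and -1.55 under that weighting. Direct comparison of the libraries with an Mll4 label, which does not use the control, put Fdft1 and Sqle higher in the Mll3/4-labelled library, at log2 ratios of 1.26 (1.09 to 1.42) and 1.08 (0.93 to 1.22), against 15.2% of genes at least 1.5-fold higher. Lss was lower at -0.77, against 20.5% of genes, and the ratio of Idi1 was 0.10 (-0.02 to 0.21).

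**Figure D2:**
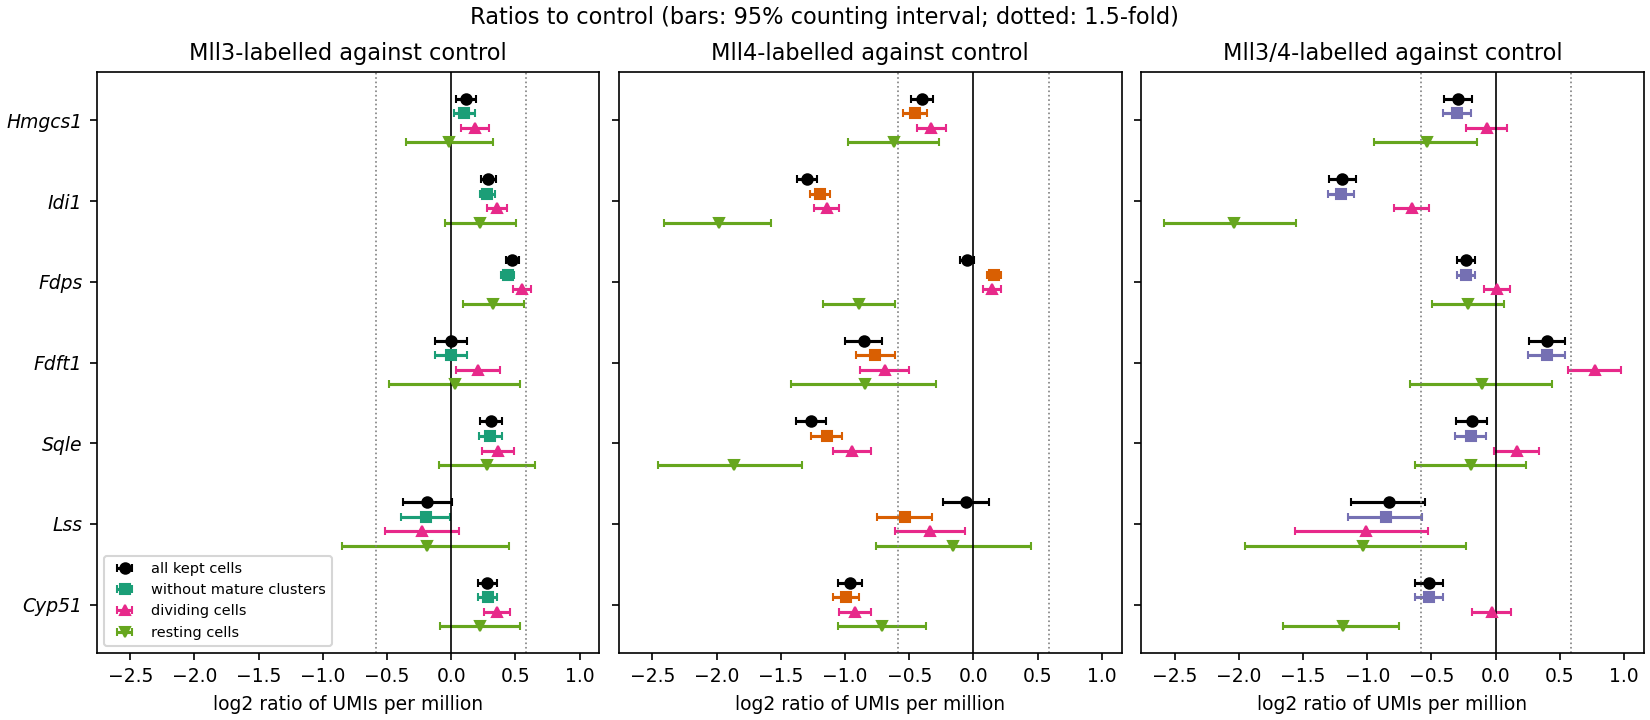
Log2 ratio to the control (horizontal axis) of each gene in the 3 other libraries, over all kept cells, without mature clusters, and within dividing and resting cells; bars are 95% counting intervals and dotted lines mark 1.5-fold. In the Mll4-labelled panel Fdps moves from -0.05 over all cells to -0.89 in resting cells, and in the Mll3/4-labelled panel Idi1 is at -2.04 in resting cells and -0.65 in dividing cells. Ratios within dividing and resting cells include mature clusters, which made up 80.8% of the Mll4-labelled resting cells.

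The next comparison set dividing cells against resting cells within each library. Each cell was thinned to 3000 UMIs; dividing cells had at least 2 UMIs of 16 genes of the G2 and M phases, and resting cells had 0 UMIs of these and of 16 S phase genes. The 7 genes are on neither list. The control had 2818 dividing and 682 resting cells. The other libraries had 2571 and 566 (Mll3-labelled), 1785 and 625 (Mll4-labelled), and 1360 and 695 (Mll3/4-labelled). These are ranges of a count and not cell types: 273 to 422 dividing cells per library sat exactly at 2 UMIs, and 827 to 1106 cells had exactly 1. Dividing cells were deeper, with medians of 14016 to 39488 UMIs against 6668 to 11904 in resting cells. The summed level of the 7 genes was 163 CPM in dividing and 144 in resting cells of the control, 212 and 166 in Mll3-labelled cells, 120 and 71.7 in Mll4-labelled cells, and 153 and 90.6 in Mll3/4-labelled cells. It was higher in dividing cells in each library, by the least in the control.

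Idi1 and Fdps were higher in dividing cells in all 4 libraries, and Lss was lower in all 4. Idi1 was at 39.6 CPM in dividing and 29.7 in resting cells of the control, 50.6 and 34.8 in Mll3-labelled cells, 17.9 and 7.50 in Mll4-labelled cells, and 25.1 and 7.17 in Mll3/4-labelled cells. The log2 ratios of dividing to resting cells were 0.41 (0.21 to 0.62), 0.54 (0.35 to 0.74), 1.25 (0.89 to 1.64) and 1.79 (1.34 to 2.32). The gap was thus wider in both libraries with an Mll4 label, where the level in resting cells was low.

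Fdps was at 51.1 and 37.3 CPM in dividing and resting control cells, 74.9 and 46.9 in Mll3-labelled, 56.5 and 20.1 in Mll4-labelled, and 51.4 and 32.2 in Mll3/4-labelled cells. Its log2 ratios were 0.45 (0.27 to 0.64), 0.67 (0.51 to 0.85), 1.48 (1.27 to 1.72) and 0.67 (0.44 to 0.91), the largest in the Mll4-labelled library. Lss went the other way, at 3.70 and 6.52, 3.16 and 5.69, 2.93 and 5.86, and 1.82 and 3.13 CPM in dividing and resting cells of the same libraries. Its log2 ratios were -0.83, -0.86, -1.01 and -0.80, and the last, from 38 and 17 UMIs, had an interval that held 0 (-1.64 to 0.14). In dividing cells Lss was thus the lower of the pair in each library.

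Cyp51, Fdft1, Sqle and Hmgcs1 lay near 0 in the control and in the Mll3-labelled library, at log2 ratios between -0.18 and 0.17 with intervals that held 0. In the Mll3/4-labelled library Cyp51 was at 22.3 CPM in dividing and 10.3 in resting cells, a log2 ratio of 1.1 (0.71 to 1.54), and Fdft1 had a ratio of 0.70 (0.27 to 1.18). Sqle had a ratio of 0.88 (0.42 to 1.42) in the Mll4-labelled library, and Cyp51 one of -0.26 there. At least 1.5-fold higher in dividing cells were 0 of the 7 genes in the control, against 16% of all genes, 1 in Mll3-labelled cells (Fdps, against 19.9%), 3 in Mll4-labelled cells (Sqle, Idi1 and Fdps, against 33.3%) and 4 in Mll3/4-labelled cells (Idi1, Fdps, Fdft1 and Cyp51, against 17.8%). At least 1.5-fold lower was Lss in each, against 7.07%, 6.66%, 14.5% and 10.5%. Lss, Sqle and Fdft1 lie under the 20 CPM limit used for these shares and do not compare directly with them. The difference of the ratios of dividing to resting cells between libraries was not tested.

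The classes did not hold the same kinds of cells in the Mll4-labelled library. Mature clusters made up 80.8% of its resting cells and 14.3% of its dividing cells, and granulocyte-monocyte-like cells 2.24% and 41.0%. Without mature clusters, 120 resting and 1530 dividing cells were left there. The log2 ratio of Fdps was then 0.70 (0.40 to 1.05) in place of 1.48, that of Sqle 0.27 (-0.42 to 1.16) in place of 0.88, and that of Hmgcs1 0.91 (0.31 to 1.66) in place of 0.26. Idi1 was at 0.93 (0.34 to 1.66). Fdft1 moved from -0.02 to -0.64 (-1.27 to 0.14). In the other libraries mature clusters made up at most 6.74% of resting cells.

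**Figure D3:**
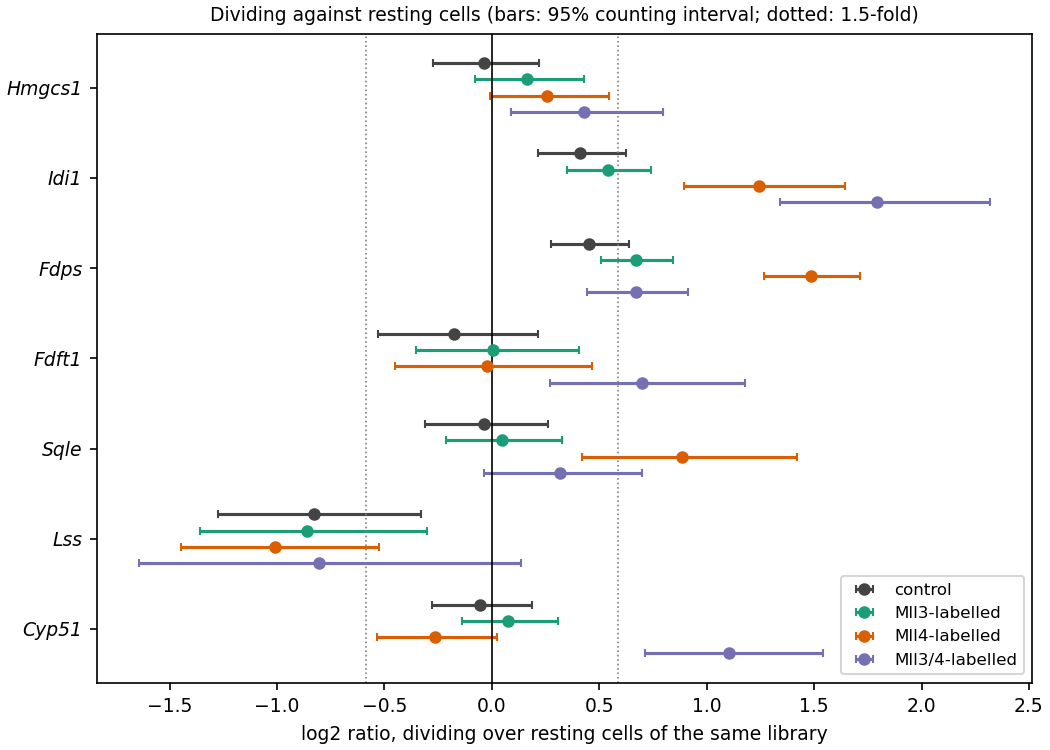
Log2 ratio of dividing over resting cells (horizontal axis) of each gene in the 4 libraries; bars are 95% counting intervals and dotted lines mark 1.5-fold. Idi1 and Fdps lie right of 0 and Lss left of 0 in each library, and Cyp51 stands apart in the Mll3/4-labelled library at 1.1.

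Between the same classes of 2 libraries, Idi1 lay further from the control in resting than in dividing cells in both libraries with an Mll4 label, but not in the Mll3-labelled one, where its log2 ratios were 0.23 (-0.05 to 0.50) and 0.35 (0.28 to 0.43). Its log2 ratio to control in Mll3/4-labelled cells was -2.04 (-2.58 to -1.55) in resting and -0.65 (-0.79 to -0.52) in dividing cells, and in the Mll4-labelled library -1.98 and -1.14. Cyp51 showed this in the Mll3/4-labelled library, at -1.19 (-1.66 to -0.75) in resting and -0.03 (-0.18 to 0.12) in dividing cells. Fdft1 was higher than in the control in Mll3/4-labelled dividing cells, at 0.77 (0.56 to 0.98), and at -0.10 (-0.67 to 0.44) in resting cells. The Mll3-labelled ratios in dividing cells ran from -0.23 for Lss to 0.55 for Fdps.

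Surface antibodies divided the cells into gates, which name surface proteins only. Among CD135- cells the HSC gate took those with CD150 and no CD48, MPP1 those with neither, MPP2 those with both and MPP3 those with CD48 alone. CD135+ cells without CD150 formed the MPP4 gate, and those with it are called CD150+CD135+. The HSC gate held 1726, 2707, 358 and 215 cells of the control, Mll3-, Mll4- and Mll3/4-labelled libraries. Gate sizes depended on centring the antibody counts: without it the Mll3/4-labelled library had 32 cells in the HSC gate in place of 215, 1449 in MPP1 in place of 153, and 255 in CD150+CD135+ in place of 1767. The 7 genes in the HSC gate summed to 183 CPM (177 to 188), 214 (209 to 218), 109 (102 to 116) and 120 (106 to 135). The order of the libraries was the one seen over all cells, and the last 2 overlapped. In the MPP3 gate the sums were 161, 206, 114 and 129, and in the MPP4 gate 151, 187, 90.5 and 128. The libraries thus kept their places in each of these gates, the Mll3-labelled highest and the Mll4-labelled lowest. The gates did not hold like cells: mature clusters made up 51.7% of the Mll4-labelled MPP3 gate and 62.6% of its MPP4 gate. In the control they made up 2.79% and 5.24%. Without them the Mll4-labelled median log2 ratio to control was -0.83 in place of -0.86 in MPP3. In MPP4 it was -0.42 in place of -0.68. In the MPP1 and MPP2 gates the sums were 170 and 189 in control cells, 188 and 210 in Mll3-labelled cells, 101 and 110 in Mll4-labelled cells and 129 and 140 in Mll3/4-labelled cells. Of all Mll3/4-labelled cells 99.4% were B-lineage-like, against 0.206% in the control, so gates of that library held mostly such cells.

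**Figure D4:**
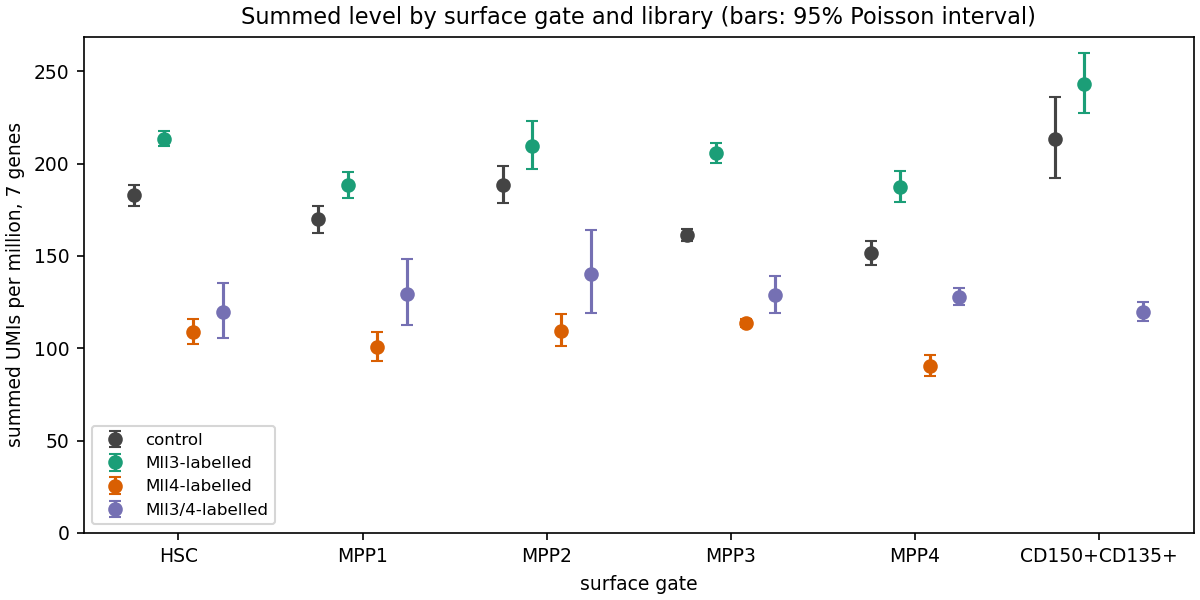
Summed CPM of the 7 genes (vertical axis, from 0) by surface gate and library; bars are 95% Poisson intervals, and gates with fewer than 100 cells of a library are left out. In the HSC gate the Mll3-labelled library is at 214 and the Mll4-labelled library at 109.

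In the HSC gate of the Mll4-labelled library 4 of the 7 genes were at least 1.5-fold lower than in the control, against 9.13% of genes, and all 7 ratios were below 0. They were -0.96 (-1.22 to -0.71) for Cyp51, -0.89 (-1.21 to -0.59) for Sqle, -0.87 (-1.07 to -0.68) for Idi1 and -0.73 (-0.93 to -0.53) for Fdps, with the others between -0.42 and -0.33. Mature clusters made up 1.68% of these cells, and without them the count was 4 again, against 9.21%, with Fdps at -0.71. In the MPP3 gate, where 51.7% of Mll4-labelled cells were of mature clusters and 28.0% granulocyte-monocyte-like, Fdps was at 0.09 (0.03 to 0.16) while Idi1 and Sqle were at -1.33 and -1.30. Without mature clusters Fdps was at 0.34 (0.27 to 0.41) there. Fdps therefore differed in direction between gates of this library, and its level by cluster lay apart in 1 cluster. It was at 83.6 CPM in the granulocyte-monocyte-like cells and between 13.1 and 25.8 in the 6 other clusters of at least 100 Mll4-labelled cells.

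The gates of the Mll3/4-labelled library held mostly B-lineage-like cells, so cells of unlike kinds are compared with the control here. Idi1 of the Mll3/4-labelled library was lower than in the control in all 6 gates, at log2 ratios of -1.46 (-1.99 to -1.02) in HSC, -1.60 in MPP1, -0.80 in MPP2, -1.40 in MPP3, -0.88 in MPP4 and -1.72 in CD150+CD135+ cells. Without centring it was lower in all 4 gates that had at least 100 cells, at -1.17 in MPP1, -1.27 in MPP3, -1.01 in MPP4 and -1.18 in CD150+CD135+ cells, and the HSC and MPP2 gates had too few. The count of genes at least 1.5-fold lower in the HSC gate was 4 of 7 (Idi1, Cyp51, Sqle and Lss), against 19.4% of genes. In the MPP4 gate it was 1 of 7, against 19.7%. Sqle and Lss lie under the 20 CPM limit used for these shares, so only Idi1 and Cyp51 compare directly with the 19.4%. Sqle had 28 UMIs in this HSC gate, at -0.63 (-1.26 to -0.11), and Lss had 5 UMIs. Between the MPP4 and HSC gates of this library none of the 7 ratios passed 1.5-fold, against 5.81% of genes. All 7 intervals held 0, from the narrowest for Fdps (-0.17 to 0.48) to the widest for Lss (-1.51 to 1.49).

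Within the control, cells of the MPP3 gate had less Cyp51 than cells of the HSC gate, at a log2 ratio of -0.50 (-0.63 to -0.37), and less Idi1, at -0.44 (-0.54 to -0.33). Hmgcs1 was higher, at 0.36 (0.20 to 0.52). Hmgcs1 thus differed between these gates in the opposite direction to Idi1 and Cyp51. None of the 7 genes passed 1.5-fold, against 9.57% of genes in either direction. In the Mll3-labelled library the same 3 ratios were -0.39, -0.36 and 0.16.

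Some clusters stood out for single genes. Lss was at 28.4 CPM (23.7 to 33.7, 129 UMIs) in the mast or basophil-like cells of the Mll4-labelled library and between 1.8 and 5.6 in its other clusters of at least 100 cells. The megakaryocyte-like cells of the Mll3-labelled library (516 cells) had the highest summed level of any cluster of at least 100 cells of a library, 284 CPM, with 80.9 for Idi1 and 98.3 for Fdps. Clusters were made without the 7 genes. B-lineage-like cells of the Mll3-labelled library (159 cells) had a summed level of 238 CPM (223 to 253), against 125 (122 to 128) in those of the Mll3/4-labelled library (4720 cells), which lie in different clusters. The log2 ratio of the latter to the former was -1.60 (-1.81 to -1.37) for Idi1, -1.24 (-1.39 to -1.08) for Fdps, -0.81 for Cyp51 and 0.20 (-0.22 to 0.69) for Fdft1. Of the 7 genes, 3 were at least 1.5-fold lower, against 26.9% of genes.

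The other genes of the pathway were taken from lists. Of 14 other synthesis enzymes, 11 had a mean of 5 CPM or more. In the Mll3-labelled library all 11 ratios to control were above 0, from 0.07 for Ggps1 upward. Their median was 0.19 beside 0.10 for all genes at this minimum, so more genes lay above 0 than below in general. Of the 11, 1 passed 1.5-fold, Pmvk (phosphomevalonate kinase) at 0.63, against 4.33% of genes higher. In the Mll4-labelled library all 11 were below 0, with a median of -0.29 beside -0.11 for all genes. Of these, 2 were at least 1.5-fold lower, against 15.3% of genes. Pmvk was among them, at -0.62. The Mll3/4-labelled library had 3 that were lower, against 24.1%, with Acat2 at -0.77 and Nsdhl at -0.62 among them.

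Srebf2 and Insig1, of sterol sensing, were lower than in the control in both libraries with an Mll4 label. Srebf2 was at 68.0 CPM in the control, 65.1 in Mll3-labelled cells, 43.1 in Mll4-labelled cells and 25.2 in Mll3/4-labelled cells. The last was the lowest, at a log2 ratio of -1.43 (-1.52 to -1.35), although the 7 enzymes summed higher there than in the Mll4-labelled library. Insig1, which holds SREBP2 back, had ratios of 0.16, -0.68 and -0.92. Its relative Insig2, named after its values were seen, had ratios of 0.25, -0.29 and 0.51, so the pair differed in opposite directions in the Mll3/4-labelled library. Of 7 genes for sensing and SREBP control, 2 were at least 1.5-fold lower in each of these libraries, against 15.3% and 24.1% of genes. Of 6 measured genes of uptake and lysosomal release, 3 were at least 1.5-fold lower and 1 higher in Mll4-labelled cells, against 15.3% and 12.6% of genes. The higher one was Lipa, the lysosomal acid lipase, at 1.31, and Stard4 was the lowest of those of at least 20 CPM, at -0.74. The summed level of the list was 379 CPM there against 306 in the control. It was 324 CPM in dividing and 632 in resting Mll4-labelled cells, and 293 and 339 in the control. Mature clusters made up 80.8% of the Mll4-labelled resting cells, and their part in this sum was not tested. In Mll3/4-labelled cells 4 of the 6 were lower and 0 higher, against 24.1% and 13.7%.

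The lists of efflux and of fatty acid synthesis were mixed. Of 6 measured genes for cholesterol efflux and storage, 2 were at least 1.5-fold higher and 1 lower in the Mll4-labelled library, against 12.6% and 15.3% of genes. Soat1, which stores cholesterol as esters, was the highest of its measured genes there at 1.63, and Nceh1, which releases it, the lowest at -0.72. Among Mll3/4-labelled cells Mylip, a ubiquitin ligase of sterol uptake, was at 1.23 and Nceh1 at -1.52. Among 9 fatty acid genes, 5 were lower and 1 higher in the Mll4-labelled library. The Mll3/4-labelled counts were 4 lower and 1 higher, against 24.1% and 13.7% of genes, with the elongase Elovl6 at 1.71 and Acsl3 at -1.27. In dividing against resting Mll3/4-labelled cells 4 of the 9 were at least 1.5-fold higher, against 17.4% of genes at this minimum, with the desaturase Fads1 highest of those above 20 CPM at 2.11 (1.57 to 2.75).

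**Figure D5:**
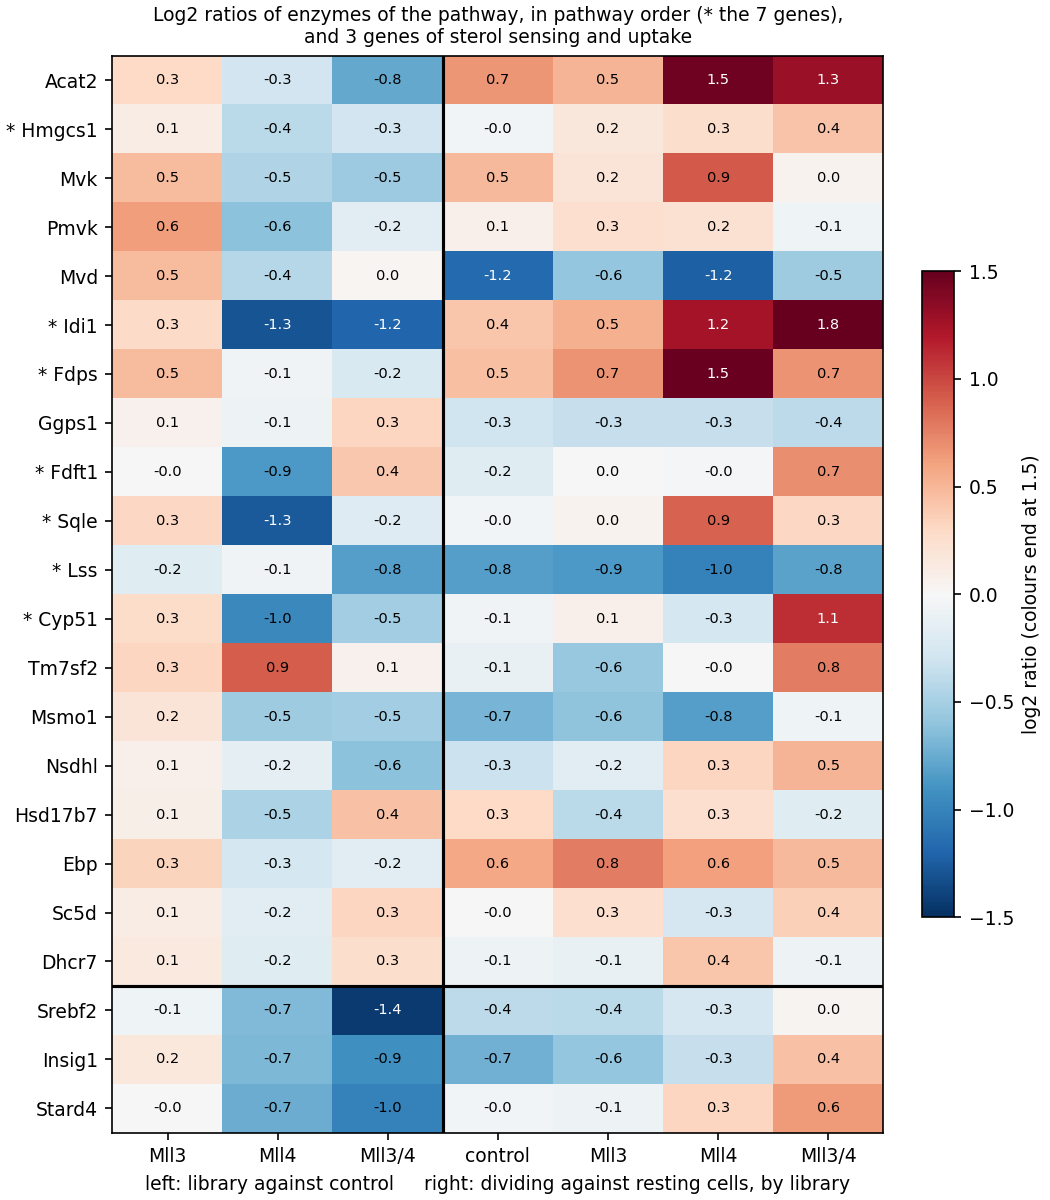
Log2 ratios (colour and printed value, colours ending at 1.5) of synthesis enzymes in pathway order, with genes of sensing and uptake below the line, for each library against the control (left) and for dividing against resting cells in each library (right); asterisks mark the 7 genes, and genes of low count are shown without a filter. Srebf2 is at -1.43 and Insig1 at -0.92 in the Mll3/4-labelled column.

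The 7 genes were next set against each other and against all genes over 24 units, each the dividing or resting cells of 1 gate in 1 library with at least 100 cells. Units of a library share its preparation and depth, so the correlations of log2(CPM + 1) are a description. Pearson values between pairs of the 7 ran from -0.347 (Fdps with Lss) to 0.829 (Idi1 with Cyp51). Those of Lss with the other 6 lay between -0.347 and 0.205. Sqle and Fdft1, adjacent steps, had 0.746. The 10 genes most like the summed level were Txnl1 (0.973), Acp1, Ahsa1, Sf3b6, Taf10, Srsf6, Bcas2, Naa20, Thoc3 and Psmb2 (0.941). Idi1, which is itself part of the sum, had 0.928 at rank 24 of 6125 genes. Srebf2, which is not part of it, had 0.447 at rank 2809.

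Within libraries the genes were sparse. After thinning to 3000 UMIs, a cell held on average 0.508 UMIs of the 7 genes in the control, 0.613 in Mll3-labelled cells, 0.300 in Mll4-labelled cells and 0.343 in Mll3/4-labelled cells, and 57.2% to 76.0% of cells held 0. The variance over the mean was 1.16 to 1.29. Across these thinned cells of a library, the median Pearson value of pairs of the 7 genes was 0.00476 (Mll4-labelled) to 0.0219 (control). The highest value of any pair was 0.0689, in the Mll3-labelled library. Control cells with 3 or more of these UMIs (185 cells) had 423 CPM of the 14 other synthesis enzymes (371 to 481), against 264 (255 to 272) in cells with 0. The other enzymes were also higher in such cells of the Mll3-labelled library, 481 against 308, and of the Mll3/4-labelled library, 417 against 226, the last from 44 cells. In the Mll4-labelled library the levels were 214 (141 to 312) in 42 cells and 199 in cells with 0, and their intervals overlapped. The G2 and M phase list was lower in cells with 3 or more than in cells with 0 in 3 libraries, at 823 against 1544 CPM in the control, 1434 against 1741 in Mll3-labelled cells and 897 against 1172 in Mll4-labelled cells. It was higher in the 44 Mll3/4-labelled cells, at 3129 against 1485. In cells with 1 to 2 UMIs this list was at 1418 CPM in the control, below cells with 0. It was above them in Mll3-labelled (1802), Mll4-labelled (1418) and Mll3/4-labelled cells (1723). The S phase list was higher with 3 or more than with 0 in each library. It was at 1661 against 1429 CPM in the control and 2062 against 1610 in Mll3-labelled cells. In Mll4- and Mll3/4-labelled cells it was at 1484 against 1033 and 2364 against 1177. These are ranges of a sum over cells of 1 library, not types of cell.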

How the data were processed

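The authors deposited raw counts of UMIs per gene and of 6 antibodies per cell barcode in sparse matrices for 4 libraries. Per the labels' protocols the libraries used 10x Genomics 3-prime chemistry, and per the file headers and the submitters' processing notes the matrices came from Cell Ranger 6.1.1, with the mm10 build named. How barcodes were chosen is not given in the sources used here. Here, counts were summed over kept cells and scaled to CPM, UMIs per 1000000 (119328763, 105907176, 120700343 and 50792614 kept UMIs in the control, Mll3-, Mll4- and Mll3/4-labelled libraries). Ratios are log2 after adding 0.5 UMIs, with exact Poisson and exact conditional binomial intervals. PCR duplicates are removed by UMIs, but the intervals cover counting error only.

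Doublets were kept. Because the own threshold of Scrublet marked very few cells in 3 libraries, the alternative removed the cells with its highest scores, 0.8% per 1000 cells. Thinning to 3000 UMIs left out 14, 17, 134 and 33 cells. Gates used a centred log ratio of the antibodies and 1 Gaussian mixture crossing per antibody. Cells were clustered together with scanpy 1.11.5 (2000 variable genes without the listed genes, 30 components, 15 neighbours, Leiden resolution 0.6), and clusters were named from at least 3 markers raised at least 2-fold. Gene positions are from GENCODE on GRCm38. The calculation of ratios was tested on simulated data. The genes and lists were chosen with earlier results of these data known. Named beside the 7 genes are Srebf2 and Insig1, the highest and lowest ratio of each list among genes of at least 20 CPM, and the 10 genes most like the summed level; Acat2 and Nsdhl were named after their values were seen. Some genes of the lists are counted in them but not reported by name here. Alternatives were TMM (edgeR 4.0.16) and median-of-ratios (DESeq2 1.42.0) scaling, other cell filters, totals, weights, gates and phase rules.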

Additional observations from a re-analysis of the deposited data

Results flagged for a closer look

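Fdps of the Mll4-labelled library had ratios to control of opposite sign in different groups of cells, with intervals on either side of 0. The log2 ratio was 0.14 in dividing and -0.89 in resting cells. It was 0.09 in the MPP3 gate, against -0.73 in the HSC gate, -0.62 in MPP1, -0.63 in MPP2 and -0.62 in MPP4. These differences were not tested, since there was 1 library per genotype. Mature clusters held 80.8% of the resting cells and 51.7% of the MPP3 gate in this library, and their part in the result was not tested. Without them, the ratio was 0.20 in dividing cells (0.13 to 0.27), -0.09 in resting cells (-0.47 to 0.27) and 0.34 in the MPP3 gate. Granulocyte-monocyte-like cells are not among the mature clusters and stayed in these values. With all cells kept, they made up 41.0% of dividing cells, 2.24% of resting cells and 28.0% of the MPP3 gate in this library. Fdps was at 83.6 CPM in them, and their part was not tested.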

How the results depend on the processing

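No paired analysis was possible because each genotype had 1 library, and no replicate could be left out for the same reason. The median log2 ratio of the 7 genes in the Mll3-labelled library, 0.28, was 0.18 with TMM scaling, with median-of-ratios scaling and with gates weighted to control shares, and 0.20 with totals without mitochondrial and ribosomal protein genes. In the Mll4-labelled library the median of -0.86 was -0.62 with gates weighted to control shares. With S phase cells in place of dividing cells, the median against resting cells was 0.32 in the control (-0.04 before), 0.31 in the Mll3-labelled (0.08) and 0.17 in the Mll3/4-labelled library (0.67). Lss against resting cells in the Mll3/4-labelled library was then 0.031 in place of -0.80. Its Mll3-labelled ratio in CD150+CD135+ cells was -0.31 with antibody counts that were not centred, in place of 0.80. The share of genes past 1.5-fold in the Mll3-labelled library was 10.8% at a minimum of 100 CPM, in place of 6.11%. The causes were not tested. The other 22 of 27 library medians and 33 of 36 medians for dividing cells moved by less than their counting interval. Leaving out mature clusters in gates and phases was chosen after seeing the data. Depth limits Lss in resting cells (17 to 50 UMIs per library), and there also Sqle (37) and Fdft1 (46) of the Mll4-labelled and Idi1 (39) of the Mll3/4-labelled library.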
